A study of Homo sapiens with 24 samples.

Results

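The DNAJ genes encode the HSP40 co-chaperones, proteins that carry a J domain and work with HSP70. All protein coding genes whose GENCODE v29 symbol is DNAJA, DNAJB or DNAJC followed by digits only were taken, which gave 42 of the 57500 genes counted: 4 DNAJA, 12 DNAJB and 26 DNAJC genes. They were measured by RNA sequencing in spheroids of FaDu and SAS, established human head and neck squamous carcinoma cell lines, each grown alone for 4 days. Each spheroid type had 4 groups of 3 replicates, 24 libraries in all. Control spheroids received neither heat nor radiation and were kept in sealed plates in parallel. HT spheroids were heated at 42.5 °C for 60 min, and RT spheroids received a single radiation dose of 7 Gy (FaDu) or 10 Gy (SAS). HT + RT spheroids received heat and that dose. RNA was taken 0.5 h after treatment, so each value stands for that time only. Each spheroid type comes from 1 cell line and holds no other cell type by design.

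The J domain stimulates the ATPase of HSP70 and so helps HSP70 to hold unfolded proteins, while nucleotide exchange factors let HSP70 release them again. DNAJA and DNAJB proteins bind unfolded substrates themselves, and several of their genes are known targets of heat shock factors. DNAJC proteins share little beyond the J domain and bring HSP70 to particular tasks such as protein import into mitochondria, folding in the ER, removal of clathrin coats or work at the ribosome. Levels are given as CPM, the counts of a gene scaled to the same library total, after TMM scaling over the 24 libraries. A gene is called altered when its adjusted p was under 0.05, with p-values adjusted over all genes tested, and its log2 fold change was over 1 in size. The tests held no term for the replicate number, except where a block of replicate numbers is named. In a spheroid, a lower level can stand for fewer cells of a kind or for less RNA per cell, and these cannot be told apart here.

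The libraries held between 15203484 and 29452514 counts, with a median of 18378943. In SAS spheroids the replicates of a group differed from one another by a chi-square per gene of 4.32 to 10.63, where sampling noise alone would give a value near 1. In FaDu spheroids the libraries numbered 1 stood apart from the others: pairs with them gave 13.62 to 19.49, and pairs of replicates 2 and 3 gave 3.29 to 4.69. The FaDu comparisons were therefore also run without the 4 libraries numbered 1, an alternative chosen after seeing the data, and some of its values are given below. All 9 markers of squamous epithelium had counts in every library, with KRT17 the most abundant, and their summed level was 9835 to 11721 CPM in FaDu and 3764 to 4598 CPM in SAS spheroids.

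The 10 markers of leukocytes, endothelium and fibroblasts were low. Their summed level was 45.5, 53.1 and 56.6 CPM in FaDu control, 42.5, 53.2 and 57.6 in FaDu RT, 58.9, 57.4 and 72.2 in FaDu HT and 52.7, 64.97 and 73.9 in FaDu HT + RT spheroids. It was 20.7, 24.1 and 14.9 CPM in SAS control, 24.6, 27.2 and 16.9 in SAS RT, 50.96, 40.8 and 35.5 in SAS HT and 46.1, 49.4 and 38.2 in SAS HT + RT spheroids, so every heated SAS library was above every unheated one. The most abundant of these genes was COL1A1 in the FaDu groups and in the heated SAS groups, and CDH5 in SAS control and SAS RT spheroids. COL1A1, a fibroblast collagen, had a mean of 1.32 CPM in SAS control and 23.9 CPM in SAS HT spheroids. In the same groups CDH5 had means of 14.4 and 15.3 CPM, and none of the other markers had a higher mean in SAS HT spheroids. The fibroblast gene PDGFRB had 0.37 and 0.293 CPM, and CD68 had 1.77 and 1.58 CPM. The higher sum in SAS HT spheroids thus came mostly from COL1A1. The defining leukocyte genes PTPRC, CD3E and LYZ had 0 counts in 19, 21 and 14 of the 24 libraries, and the fibroblast genes COL3A1 and PDGFRB had 0 counts in 12 and 5. PECAM1 of endothelium was at 0 in 1 library, and CD68 and VWF were at 0 in none. The part of these markers in the results on the DNAJ genes was not tested.

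Of the 42 members, 37 passed the low count filter in all 13 comparisons, 2 passed in some and 3 in none. The 3 were DNAJB7 (89 counts over the 24 libraries), DNAJB13 (17 counts) and DNAJB8 (5 counts), genes known for expression in testis, and they had 0 counts in 7, 14 and 21 libraries. DNAJC22 was tested in 9 comparisons and DNAJC28 in 11. DNAJC22 passed the filter mainly through SAS spheroids: it had 7, 7 and 7 counts in FaDu control libraries and 231, 230 and 269 counts in SAS control libraries. By known location of the proteins, 14 of the members work in the cytosol and nucleus, 7 at the ER, 6 in mitochondria and 3 in vesicle traffic, and 12 were given no location. DNAJC14 and DNAJC16 are among the 12, so the counts at the ER leave them out.

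DNAJA1, a farnesylated cytosolic partner of HSP70, had the highest level per length of the 42 members in control spheroids of both types. Per kb of exon it measured 90.3, 69.2 and 80.01 CPM in FaDu control and 195, 176 and 155 CPM in SAS control libraries. DNAJB1, the classical heat-inducible HSP40, measured 39.4, 33.5 and 36.9 CPM per kb in FaDu control and 61.4, 51.4 and 58.6 CPM per kb in SAS control libraries. DNAJC5, the cysteine string protein of secretory vesicles, measured 40.4, 43.5 and 42.2 CPM per kb in FaDu control and 42.4, 41.96 and 42.8 CPM per kb in SAS control libraries. The order in FaDu control spheroids was thus DNAJA1, DNAJC5, DNAJB1, DNAJC8 and DNAJA2, and in SAS control spheroids DNAJA1, DNAJB1, DNAJC5, DNAJC8 and DNAJA2. DNAJA1 was above all others in each control library. DNAJC8, found with the spliceosome, followed at 34.8 ± 2.24 (SD, n = 3) CPM per kb in FaDu and 37.3 ± 2.10 in SAS control spheroids, and DNAJB1 and DNAJC8 did not differ beyond their spread in FaDu control spheroids. With the longest transcript in place of all exons as the length, DNAJB1 ranked next to DNAJA1 in both types and DNAJC5 was only the 6th member. The lowest of the members with counts in every FaDu control library were DNAJB5 (1.15 ± 0.104 CPM per kb), DNAJC27 (0.939 ± 0.0829), DNAJC28 (0.584 ± 0.103) and DNAJC22 (0.0661 ± 0.00852).

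**Figure D1:**
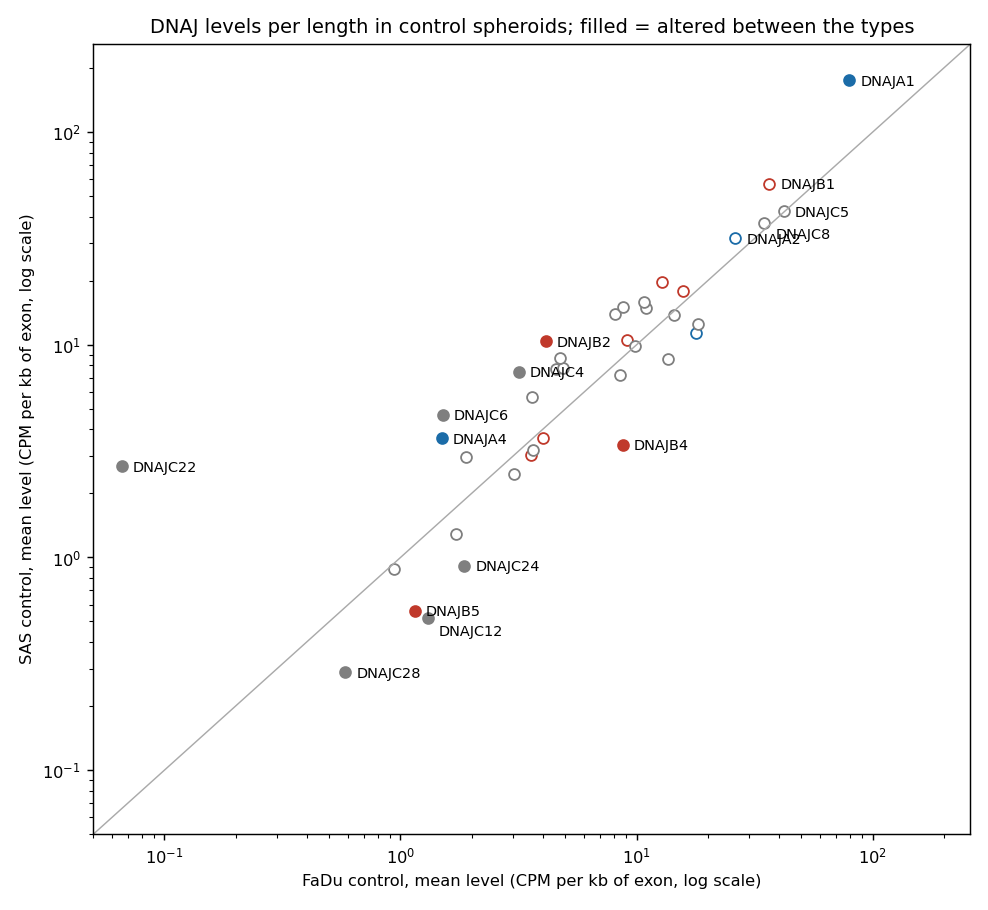
Mean level of each DNAJ gene in control spheroids, as CPM per kb of exon, SAS (vertical axis) against FaDu (horizontal axis) on log scales, 3 libraries a group (blue DNAJA, red DNAJB, grey DNAJC, filled where altered between the controls). DNAJA1 is the highest point, at 79.8 in FaDu and 175 in SAS spheroids, and DNAJC22 lies farthest from the diagonal.

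Heating FaDu spheroids raised a small set of cytosolic partners of HSP70. Between the libraries of heated and control spheroids, DNAJB1 rose 31.1-fold, DNAJA4 12.5-fold, DNAJB4 8.14-fold and DNAJA1 2.22-fold, while the other tested members had log2 fold changes under 1 in size. DNAJB1 (ENSG00000132002) measured 145, 123 and 136 CPM in the control and 3552, 4145 and 4645 CPM in the heated libraries. DNAJA4 (ENSG00000140403), a cytosolic relative of DNAJA1, measured 11.4, 8.26 and 9.99 CPM in the control and 74.6, 99.1 and 189 CPM in the heated libraries. DNAJB4 (ENSG00000162616), a close relative of DNAJB1, measured 35.5, 29.6 and 33.95 CPM in the control and 179.8, 280.1 and 335 CPM in the heated libraries. For these genes the groups did not overlap, and the heated library numbered 1 was the lowest of the heated ones. DNAJA1 (ENSG00000086061) measured 246, 189 and 218 CPM in the control and 415, 463 and 549 CPM in the heated libraries, again without overlap. The log2 fold change was 4.96 ± 0.13 (SE), adjusted p = 1e-07, for DNAJB1, 3.64 ± 0.34 (SE), adjusted p = 0.00029, for DNAJA4, 3.03 ± 0.21 (SE), adjusted p = 5.7e-05, for DNAJB4, and 1.15 ± 0.13 (SE), adjusted p = 0.00061, for DNAJA1. Without the FaDu libraries numbered 1 the log2 fold changes were 5.11, 4.0, 3.29 and 1.34, in that order.

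In FaDu HT against control, 4 of the 38 members tested were altered and higher, where 4.29% of all 15879 genes tested were, and 0 were altered and lower, against 0.674%. The count of 0 came from edgeR. DESeq2 also gave 0, and 15 members had an unadjusted p under 0.05 in either direction, as had 4885 of all 15879 genes. By adjusted p alone, 5 members were higher and 4 lower, against 7.95% and 9.69% of all genes. The lower count was 7 when scaled by total counts only and 2 to 4 with 1 library left out. Without the FaDu libraries numbered 1 the higher and lower counts were 9 and 5. With the block of replicate numbers these counts were 8 and 7, and 4 members were altered as before. Of all genes 802 were altered and higher and 126 altered and lower with the block, beside 682 and 107 without it. Shares of all genes by adjusted p alone with the block are not given in this report, so its counts of members stand without one. The block added DNAJB5 (0.64, adjusted p = 0.0016), DNAJB6 (0.36, adjusted p = 0.0071) and DNAJC24 (0.30, adjusted p = 0.034) to the higher members, and DNAJB12 (-0.20, adjusted p = 0.017), DNAJC21 (-0.17, adjusted p = 0.036) and DNAJC3 (-0.29, adjusted p = 0.0069) to the lower ones. The median log2 fold change was -0.01 over the members and 0.01 over all genes. By class, 2 of 4 DNAJA, 2 of 9 tested DNAJB and 0 of 25 tested DNAJC genes were altered, with medians of 0.54, 0.38 and -0.04. Of the DNAJC genes, 6 had an unadjusted p under 0.05. The 4 altered genes were all among the 14 members of the cytosol and nucleus.

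Among the other cytosolic members of FaDu spheroids, DNAJB2, a neuronal co-chaperone that binds ubiquitin chains, measured 23.9, 25.7 and 23.6 CPM in control and 37.6, 30.01 and 30.1 CPM in HT libraries. All heated values were above the control values. Its log2 fold change was 0.44 ± 0.10 (SE), adjusted p = 0.02, and the adjusted p was 0.053, 0.051 and 0.086 without FaDu control replicates 1, 2 or 3, in that order. Without the FaDu libraries numbered 1 it was 0.31, adjusted p = 0.012. DNAJB6, which holds back aggregation of polyglutamine proteins, measured 141, 132 and 136 CPM in control and 137, 168 and 218 CPM in HT libraries, so library 1 stayed within the control range (log2 fold change 0.38, adjusted p = 0.12). DNAJB5, a relative of DNAJB1, measured 7.25, 6.07 and 6.95 CPM in control and 13.7, 7.57 and 10.5 CPM in HT libraries (log2 fold change 0.66, adjusted p = 0.058). DNAJA2, a cytosolic partner of HSP70 like DNAJA1, was at 150.2, 121 and 127 CPM in control and 133, 122 and 119 CPM in HT libraries, with overlapping groups. The log2 fold change of DNAJA2 was -0.07. DNAJC7, which passes proteins between HSP70 and HSP90, had 0.03, and DNAJC2 of the ribosome had 0.05.

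Without the block, the members that fell in FaDu HT spheroids by adjusted p were DNAJC14, DNAJC5, DNAJC16 and DNAJB14, each by a log2 fold change of less than 1. DNAJC5 measured 213, 229.9 and 223 CPM in control and 160.4, 166 and 164 CPM in HT libraries. DNAJC14, known for transport of dopamine receptors out of the ER, measured 34.9, 35.5 and 36.5 CPM in control and 25.9, 24.7 and 21.8 CPM in HT libraries. For both, every heated library was below every control library. DNAJC16 measured 26.5, 24.3 and 26.6 CPM in control and 19.1, 18.5 and 20.2 CPM in HT libraries, and DNAJB14, an ER membrane protein with its J domain in the cytosol, 48.7, 43.01 and 49.1 CPM and 35.9, 34.4 and 36.6 CPM, also without overlap. The log2 fold changes were -0.42 ± 0.06 (SE), adjusted p = 0.002, for DNAJC5 and -0.54 ± 0.08 (SE), adjusted p = 0.0032, for DNAJC14. They were -0.40 ± 0.09 (SE), adjusted p = 0.015, for DNAJC16 and -0.38 ± 0.08 (SE), adjusted p = 0.012, for DNAJB14. The adjusted p of DNAJC16 was 0.062 and 0.074 without FaDu HT replicate 2 or FaDu control replicate 3, in that order, and that of DNAJB14 was 0.056 and 0.069 without FaDu HT replicate 2 or FaDu control replicate 3, in that order. Not counting DNAJC14 and DNAJC16, which were given no location, 1 of the 7 members listed at the ER and 1 of 3 vesicle members fell by adjusted p without the block. Of the mitochondrial members none of 6 passed it, with 0 at an unadjusted p under 0.05 in edgeR and fold changes from -0.35 to 0.09. In that fit 9.69% of all genes were lower by adjusted p, so groups of 3 to 7 genes would hold 0 or 1 such gene at that share. With the block, the ER members DNAJB12 (-0.20, adjusted p = 0.017) and DNAJC3 (-0.29, adjusted p = 0.0069) fell as well.

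**Figure D2:**
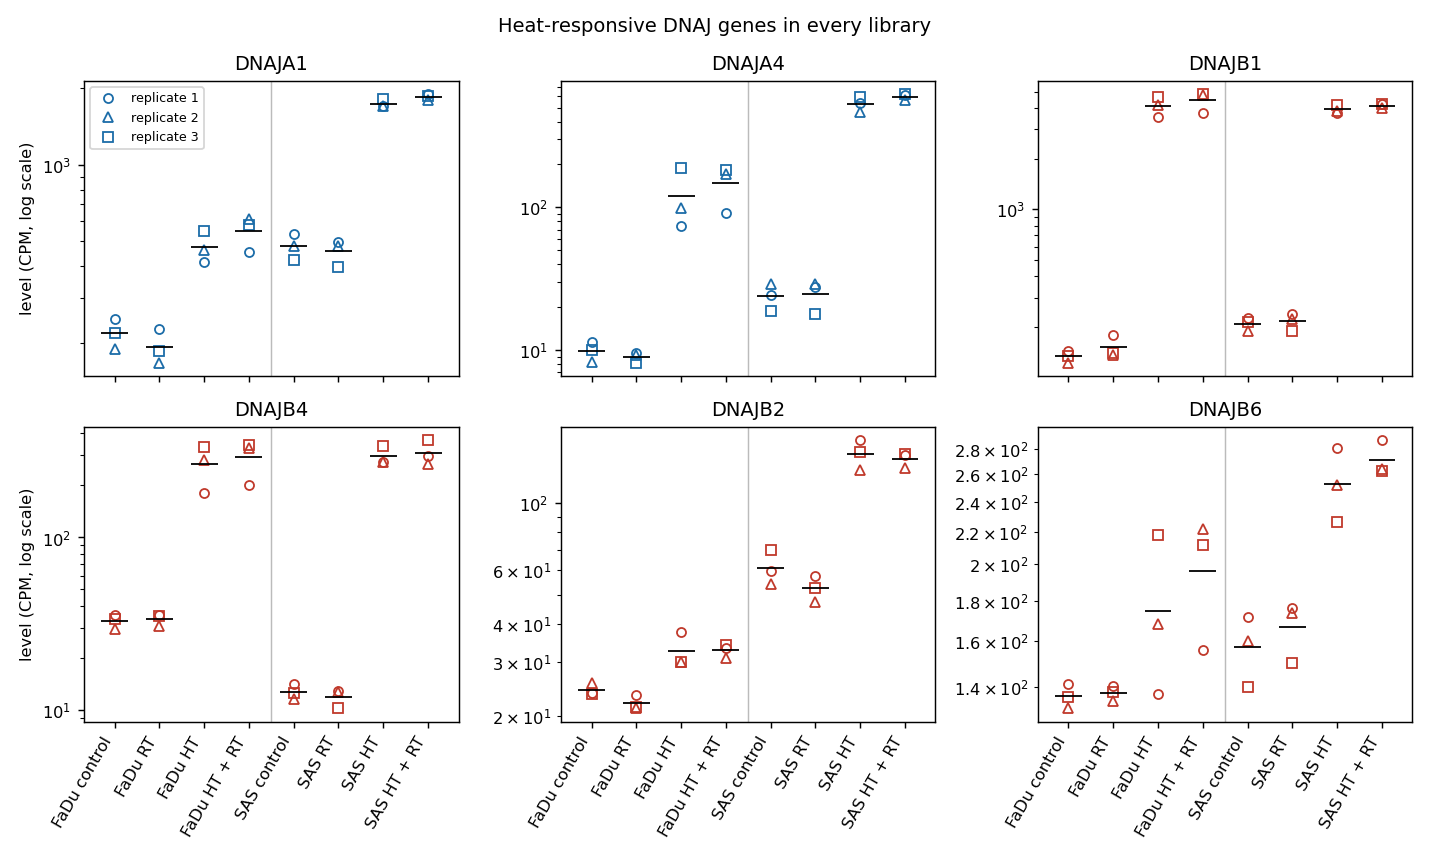
CPM of DNAJA1, DNAJA4, DNAJB1, DNAJB4, DNAJB2 and DNAJB6 in each of the 24 libraries on a log axis, by group, with a line at each group mean and a symbol for each replicate number. DNAJB1 lies at 123 to 238 CPM in the unheated libraries and at 3552 to 4804 CPM in the heated ones.

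The promoters of the altered genes are shown because these genes were altered after heat in both spheroid types, with that of DNAJB6 beside them for its matches. The RefSeq promoter windows of build GRCh38.p14, 250 bases before to 50 bases after each start, held 39 of the 42 members in 51 windows. DNAJC1, DNAJC22 and DNAJC24 had no window. The windows were searched on both strands for the letters of the heat shock element: the 2-unit forms GAANNTTC and TTCNNGAA, each its own reverse complement, and the 3-unit forms GAANNTTCNNGAA and TTCNNGAANNTTC, which are reverse complements of each other and contain both 2-unit forms in overlap. A 2-unit form was found in 13.5% of all 35116 windows and 16.2% of 27305 genes, and a 3-unit form in 0.49% of windows and 0.608% of genes. Of the 39 members, 8 had a 2-unit form, namely DNAJA1, DNAJA4, DNAJB1, DNAJB4, DNAJB6, DNAJB7, DNAJC6 and DNAJC15. DNAJA1 and DNAJB6 had a 3-unit form. By class, 2 of 4 DNAJA, 4 of 12 DNAJB and 2 of 23 DNAJC genes with a window had a 2-unit form. DNAJB2 and DNAJB5 had none in their windows. In the windows shown, the matches began at bases -198, 3 and 8 from the start of DNAJA1, -91 and -52 of DNAJA4, -77 and -47 of DNAJB1, -98 of DNAJB4, and -131 and -126 of DNAJB6. A match says only that these letters are in the window. The windows are chr9:33025023-33025322, plus strand (DNAJA1), chr15:78264312-78264611, plus strand (DNAJA4), chr19:14518348-14518647, minus strand (DNAJB1), chr1:78004689-78004988, plus strand (DNAJB4) and chr7:157336754-157337053, plus strand (DNAJB6). Where a gene had several windows, the one with the most matches is shown. The other windows of DNAJA4 and DNAJB4 held no match. Of the other windows of DNAJB1, window 1 held a match that began at base 1, and window 3 held none. Capitals mark the matched letters, 5′ to 3′ on the strand of the gene.
DNAJA1: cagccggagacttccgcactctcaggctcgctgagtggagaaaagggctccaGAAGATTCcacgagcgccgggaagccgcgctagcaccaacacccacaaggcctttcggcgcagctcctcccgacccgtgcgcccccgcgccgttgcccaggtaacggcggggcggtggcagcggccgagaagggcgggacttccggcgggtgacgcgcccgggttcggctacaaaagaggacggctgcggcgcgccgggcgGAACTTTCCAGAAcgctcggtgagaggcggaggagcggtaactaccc
DNAJA4: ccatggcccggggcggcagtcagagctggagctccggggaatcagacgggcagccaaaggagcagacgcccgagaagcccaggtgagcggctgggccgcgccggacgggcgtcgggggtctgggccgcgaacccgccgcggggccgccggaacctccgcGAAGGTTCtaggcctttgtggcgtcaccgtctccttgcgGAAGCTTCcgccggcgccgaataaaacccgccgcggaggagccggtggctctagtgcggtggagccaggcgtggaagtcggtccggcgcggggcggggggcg
DNAJB1: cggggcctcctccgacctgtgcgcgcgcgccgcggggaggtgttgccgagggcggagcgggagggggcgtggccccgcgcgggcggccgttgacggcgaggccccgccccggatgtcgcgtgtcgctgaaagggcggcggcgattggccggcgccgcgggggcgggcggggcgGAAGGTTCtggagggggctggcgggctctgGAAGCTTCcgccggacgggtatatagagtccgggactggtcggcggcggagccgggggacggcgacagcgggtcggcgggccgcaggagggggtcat
DNAJB4: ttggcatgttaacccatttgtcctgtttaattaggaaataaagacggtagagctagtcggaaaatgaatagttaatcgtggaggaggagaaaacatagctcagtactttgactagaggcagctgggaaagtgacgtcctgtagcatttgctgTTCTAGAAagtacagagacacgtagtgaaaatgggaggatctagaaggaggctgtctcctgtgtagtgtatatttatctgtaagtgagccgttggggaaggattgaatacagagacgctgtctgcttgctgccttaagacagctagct
DNAJB6: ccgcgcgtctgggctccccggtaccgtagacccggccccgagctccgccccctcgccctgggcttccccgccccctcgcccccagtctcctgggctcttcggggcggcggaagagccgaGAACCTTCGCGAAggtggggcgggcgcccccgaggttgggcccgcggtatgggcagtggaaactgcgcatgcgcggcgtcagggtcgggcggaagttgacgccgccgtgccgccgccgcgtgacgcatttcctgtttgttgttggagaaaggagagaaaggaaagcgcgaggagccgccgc

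In SAS spheroids, heating raised DNAJB2 by more than the threshold as well as the 4 genes above. DNAJB4 rose 23.1-fold, DNAJA4 22.4-fold, DNAJB1 18.7-fold, DNAJA1 3.65-fold and DNAJB2 2.37-fold. DNAJB4 measured 14.2, 11.7 and 12.6 CPM in SAS control and 273, 273 and 339.6 CPM in SAS HT libraries. DNAJA4 measured 24.4, 28.8 and 18.8 CPM in SAS control and 538, 470.5 and 597 CPM in SAS HT libraries. DNAJB1 measured 226, 189 and 215 CPM in SAS control and 3732, 3843 and 4188 CPM in SAS HT libraries. In each of these genes the lowest heated library was far above the highest control library. DNAJA1 measured 534, 482 and 422 CPM in SAS control and 1708, 1703 and 1820.2 CPM in SAS HT libraries, and DNAJB2 59.6, 54.05 and 69.98 CPM and 160.5, 128 and 146 CPM, again without overlap. The log2 fold change was 4.53 ± 0.11 (SE), adjusted p = 8.7e-11, for DNAJB4, 4.48 ± 0.14 (SE), adjusted p = 4.9e-10, for DNAJA4, 4.23 ± 0.08 (SE), adjusted p = 1.5e-11, for DNAJB1, 1.87 ± 0.08 (SE), adjusted p = 7.8e-09, for DNAJA1, and 1.25 ± 0.10 (SE), adjusted p = 4e-06, for DNAJB2.

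In SAS HT against control, 5 of the 39 members tested were altered and higher, against 5.31% of 15000 genes, and 1 was altered and lower, against 0.713%. By adjusted p alone, 9 were higher and 2 lower, against 12.2% and 11.4% of all genes. The lower count was not stable: it was 9 when scaled by total counts only, 6 with the replicate block and 0 to 2 with 1 library left out. The median log2 fold change was -0.06 over the members and 0.00 over all genes. By class, 2 of 4 DNAJA and 3 of 9 tested DNAJB genes were altered and higher, and 1 of 26 DNAJC genes was altered and lower, with class medians of 0.90, 0.69 and -0.08. The altered and lower member was DNAJC28, with 12, 11 and 15 counts in control and 4, 6 and 5 counts in HT libraries, the lowest counts of the tested members in SAS spheroids. Its log2 fold change was -1.36 ± 0.43 (SE), adjusted p = 0.038, and the adjusted p was 0.067 to 0.13 without any 1 of the 6 libraries, so this call rested on every library. With the replicate block its adjusted p was 0.056.

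Further members of SAS spheroids rose by less than the threshold. DNAJB6 measured 171, 160.3 and 140.2 CPM in control and 280.4, 252 and 226 CPM in HT libraries, and DNAJC7 135, 131 and 122 CPM and 197, 175 and 175 CPM. DNAJB5 measured 3.42, 3.25 and 3.28 CPM in control and 5.55, 5.64 and 6.33 CPM in HT libraries, and DNAJC15, a J protein of the inner mitochondrial membrane, 46.8, 43.3 and 46.9 CPM and 63.3, 56.2 and 58.7 CPM. In each, every heated library was above every control library. The log2 fold changes were 0.69 ± 0.09 (SE) for DNAJB6, 0.50 ± 0.07 for DNAJC7, 0.82 ± 0.17 for DNAJB5 and 0.38 ± 0.07 for DNAJC15, with adjusted p = 0.00013, 0.00019, 0.0041 and 0.0025. DNAJC14 measured 30.1, 31.8 and 28.7 CPM in control and 26.1, 24.9 and 24.4 CPM in HT libraries (log2 fold change -0.26 ± 0.08 (SE), adjusted p = 0.043). Its adjusted p was 0.068, 0.13, 0.12, 0.094 and 0.14 without SAS HT replicates 1, 2 or 3 or SAS control replicates 1 or 2, in that order. Without the block, none of the 7 members listed at the ER passed the adjusted p in edgeR, with fold changes from -0.35 to 0.14. DNAJC14, which fell, was given no location and is not among them. Of the 7, 1 had an unadjusted p under 0.05, where 5323 of 15000 genes had one. With the block the ER member DNAJB12 was just past the threshold (-0.16), and DNAJC16 (-0.34, adjusted p = 0.034) and DNAJC2 (0.16, adjusted p = 0.049) passed as well. The 3 vesicle members DNAJC5, DNAJC6 and DNAJC13 had log2 values of -0.15, -0.42 and -0.20 after HT, with unadjusted p under 0.05 for all of them. Without the block they had an adjusted p of 0.059, 0.087 and 0.12, and with it 0.044, 0.0057 and 0.033.

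The heat effect was measured again in irradiated spheroids, HT + RT against RT, in libraries that HT against control did not use. The same 4 genes were altered in both spheroid types, DNAJB2 again passed the fold threshold in SAS spheroids, and DNAJB5 joined it there. DNAJB1 measured 180.2, 136 and 141 CPM in FaDu RT and 3752, 4783 and 4804 CPM in FaDu HT + RT libraries, and DNAJA1 226, 166 and 185 CPM and 456, 610.3 and 582 CPM. DNAJA4 measured 9.56, 9.26 and 8.13 CPM in FaDu RT and 91.7, 172 and 183 CPM in FaDu HT + RT libraries, and DNAJB4 35.4, 30.6 and 35.3 CPM and 202, 331 and 344 CPM. Every HT + RT library was above every RT library, and the HT + RT library numbered 1 was the lowest of its group for each. In SAS spheroids DNAJB1 measured 238, 224 and 189 CPM in RT and 4190.4, 3979.99 and 4221 CPM in HT + RT libraries, and DNAJA1 496, 481 and 396 CPM and 1893, 1803 and 1867 CPM. DNAJA4 measured 27.7, 29.03 and 17.8 CPM in SAS RT and 612, 565 and 619.7 CPM in SAS HT + RT libraries, and DNAJB4 12.9, 12.7 and 10.2 CPM and 295, 267 and 367 CPM, also without overlap. In FaDu spheroids the log2 fold changes were 4.89 ± 0.15 (SE) for DNAJB1, 4.09 ± 0.26 for DNAJA4, 3.14 ± 0.20 for DNAJB4 and 1.54 ± 0.14 for DNAJA1, and the adjusted p 8.4e-07, 4.2e-05, 3.2e-05 and 0.00022. Without the FaDu libraries numbered 1 these log2 fold changes were 5.13, 4.39, 3.38 and 1.78. In SAS spheroids they were 4.69 ± 0.13 (SE) for DNAJB4, 4.59 ± 0.14 for DNAJA4, 4.25 ± 0.08 for DNAJB1, 2.02 ± 0.08 for DNAJA1, 1.40 ± 0.08 for DNAJB2 and 1.07 ± 0.18 for DNAJB5, and the adjusted p 5.1e-10, 9.5e-10, 3.1e-11, 6.1e-09, 1.6e-07 and 0.00093. DNAJB5 measured 3.83, 3.97 and 2.78 CPM in SAS RT and 6.80, 7.70 and 7.76 CPM in SAS HT + RT libraries. Without SAS RT replicate 3 its log2 fold change was 0.93, under the threshold.

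In FaDu HT + RT against RT, 4 of 38 members were altered and higher and 0 altered and lower, against 4.76% and 0.629% of 15905 genes. In SAS HT + RT against RT, 6 of 38 were altered and higher and 0 lower, against 5.71% and 0.893% of 15125 genes. The counts of 0 came from edgeR, and DESeq2 gave 0 and 0. In either direction 19 and 18 members had an unadjusted p under 0.05, as had 5151 of 15905 and 5816 of 15125 genes. By adjusted p alone, 10 members of FaDu spheroids were higher and 4 lower, against 9.37% and 9.9% of genes, and 11 members of SAS spheroids were higher and 6 lower, against 14.1% and 13.8%. With 1 library left out the lower counts were 2 to 3 in FaDu and 2 to 5 in SAS spheroids, and scaled by total counts only they were 7 and 7. The median over the members was 0.04 in FaDu and 0.02 in SAS spheroids, where all genes had 0.01 and 0.00, and it was -0.06 and -0.05 when scaled by total counts only. By class the medians were 0.78, 0.56 and -0.03 for DNAJA, DNAJB and DNAJC in FaDu spheroids and 0.97, 0.70 and -0.06 in SAS spheroids.

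Of the 7 members listed at the ER, the 2 that rose by adjusted p in HT + RT against RT were the same in both spheroid types, as were the 2 that fell. DNAJC14 and DNAJC16, given no location, are left out here. DNAJB9, a lumenal J protein known as a target of the unfolded protein response, measured 10.3, 9.21 and 9.11 CPM in FaDu RT and 13.8, 14.7 and 12.9 CPM in FaDu HT + RT libraries, and 7.95, 6.11 and 7.30 CPM and 9.27, 11.1 and 10.6 CPM in SAS libraries. The groups did not overlap in either type, and the log2 fold changes were 0.56 ± 0.11 (SE), adjusted p = 0.0092, in FaDu and 0.53 ± 0.14 (SE), adjusted p = 0.016, in SAS spheroids. The SAS value had an adjusted p of 0.061 and 0.061 without SAS HT + RT replicate 2 or SAS RT replicate 2, in that order. Against control, HT gave log2 fold changes of 0.20 in FaDu (adjusted p = 0.22) and -0.35 in SAS spheroids (adjusted p = 0.15), and the RT group had the lowest mean of the 4 groups in both types. DNAJB11, a lumenal partner of the ER HSP70, had log2 fold changes of 0.24 in FaDu and 0.20 in SAS spheroids. Its adjusted p in FaDu was 0.075, 0.082, 0.1 and 0.11 without FaDu HT + RT replicates 2 or 3 or FaDu RT replicates 2 or 3, in that order, and in SAS it was 0.16, 0.098, 0.053, 0.061 and 0.12 without SAS HT + RT replicates 1 or 2 or SAS RT replicates 1, 2 or 3, in that order. DNAJB12, an ER membrane protein in the degradation of misfolded proteins, had -0.22 and -0.18. Its adjusted p in FaDu was 0.1, 0.12, 0.061, 0.083 and 0.1 without FaDu HT + RT replicates 2 or 3 or FaDu RT replicates 1, 2 or 3, in that order, and in SAS it was 0.13, 0.1, 0.082, 0.12 and 0.074 without SAS HT + RT replicates 1 or 2 or SAS RT replicates 1, 2 or 3, in that order. DNAJC3, a lumenal J protein, had -0.27 and -0.20. Its adjusted p in FaDu was 0.065 to 0.1 without any 1 of the 6 libraries and 0.061 without the FaDu libraries numbered 1 (log2 fold change -0.18), and in SAS it was 0.073, 0.077, 0.087 and 0.092 without SAS HT + RT replicates 1 or 3 or SAS RT replicates 1 or 2, in that order.

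The remaining members past the adjusted p in HT + RT against RT had small fold changes. In FaDu spheroids DNAJB2 rose by a log2 fold change of 0.61, DNAJB5 by 0.87, DNAJB6 by 0.54 and DNAJC7 by 0.22, and DNAJC5 and DNAJC14 fell by 0.42 and 0.61. The adjusted p of DNAJB6 was 0.053, 0.073, 0.056 and 0.061 without FaDu HT + RT replicates 2 or 3 or FaDu RT replicates 2 or 3, in that order, and that of DNAJC7 was 0.066, 0.091, 0.079, 0.12 and 0.15 without FaDu HT + RT replicates 1, 2 or 3 or FaDu RT replicates 2 or 3, in that order. Without FaDu RT replicate 1, DNAJB5 passed the fold threshold in FaDu spheroids (log2 fold change 1.04, adjusted p = 0.0032). DNAJC22, below the filter here, was called altered only where FaDu HT + RT replicate 1 was left out, alone or with the others numbered 1. It was at 4, 7 and 4 counts in RT and 2, 10 and 24 counts in HT + RT libraries, too few to give a fold change. In SAS spheroids DNAJB6 rose by 0.70, DNAJC7 by 0.58 and DNAJC15 by 0.33. DNAJC16, DNAJC13 of endosomes, DNAJC9, a histone chaperone, and DNAJC5 fell by 0.46, 0.30, 0.23 and 0.22. The adjusted p of DNAJC9 was 0.071 and 0.069 without SAS HT + RT replicate 3 or SAS RT replicate 1, in that order, and that of DNAJC5 was 0.063 without SAS RT replicate 1. The replicate block added DNAJC27 (0.55, adjusted p = 0.039) in FaDu spheroids, and DNAJC11 (-0.20, adjusted p = 0.014), DNAJC25 (0.32, adjusted p = 0.033) and DNAJC30 (-0.23, adjusted p = 0.034) in SAS spheroids.

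**Figure D3:**
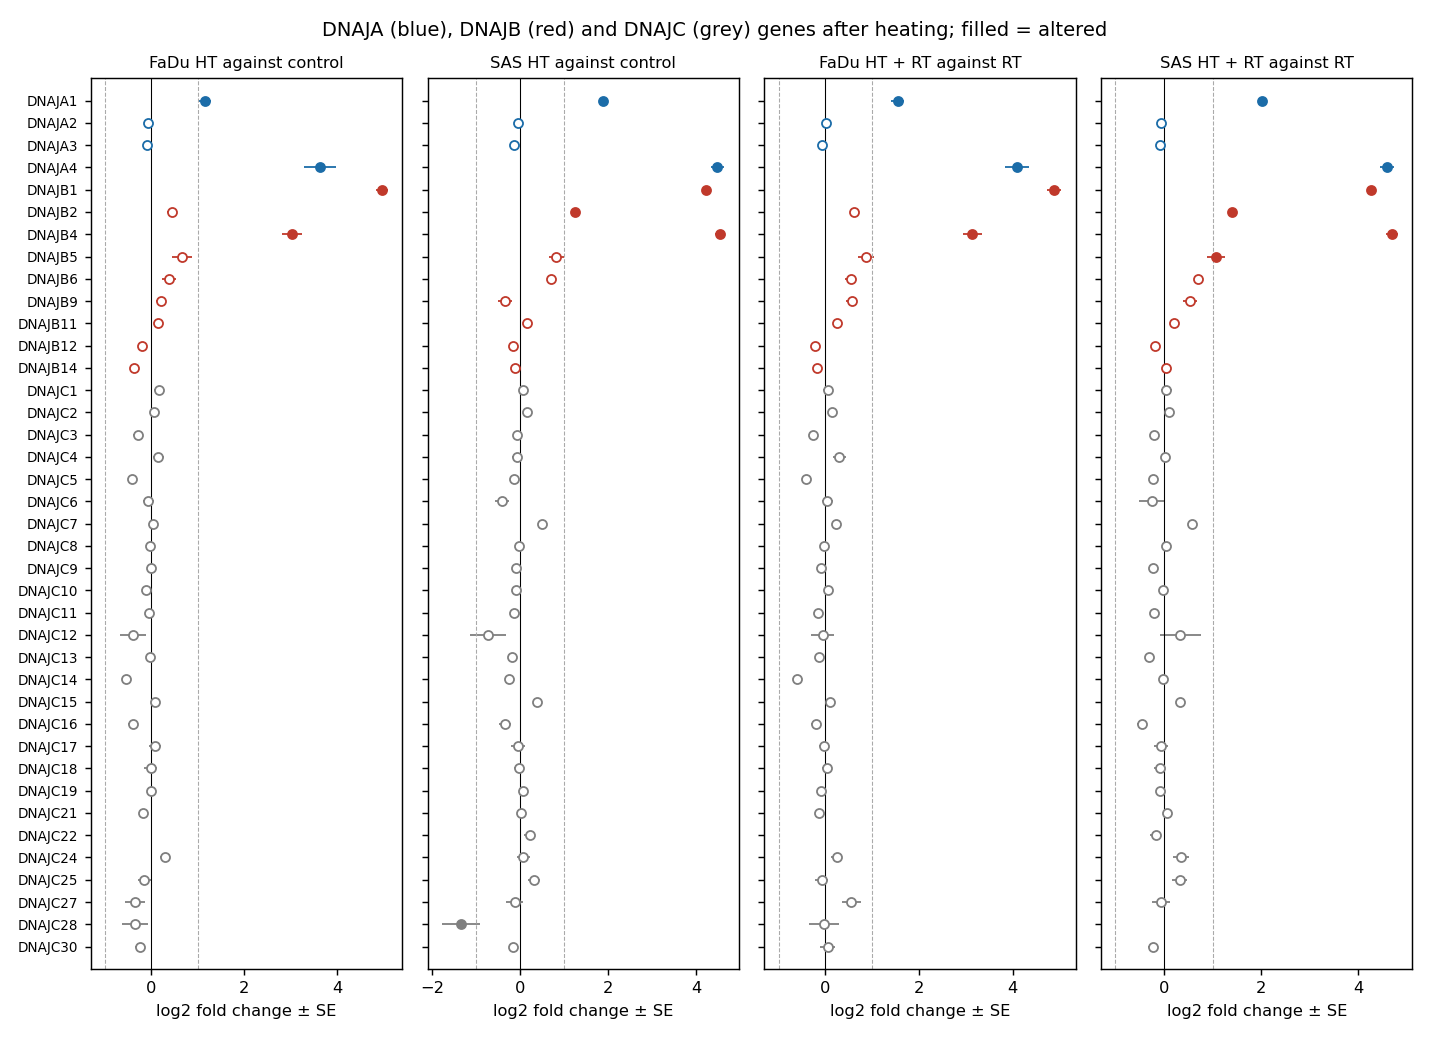
Log2 fold change ± SE of each tested DNAJ gene in the heat comparisons, HT against control and HT + RT against RT in FaDu and SAS spheroids, by class (blue DNAJA, red DNAJB, grey DNAJC, filled where altered, dashed lines at a log2 fold change of 1 in either direction). DNAJA1, DNAJA4, DNAJB1 and DNAJB4 are filled in all 4 panels, with values from 1.15 (DNAJA1, FaDu HT) to 4.96 (DNAJB1, FaDu HT).

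HT + RT against control asks for the change after the whole treatment and shares its control libraries with HT against control and RT against control, so its values are given side by side with theirs and not as a repeat. In FaDu spheroids DNAJB1, DNAJA4, DNAJB4 and DNAJA1 had log2 fold changes of 5.08, 3.94, 3.17 and 1.36, beside 4.96, 3.64, 3.03 and 1.15 after HT alone. In SAS spheroids they had 4.31, 4.65, 4.60 and 1.96, beside 4.23, 4.48, 4.53 and 1.87, and DNAJB2 and DNAJB5 had 1.19 and 1.17, beside 1.25 and 0.82. Of 38 members in FaDu spheroids 4 were altered and higher and 0 lower, against 5.08% and 0.642% of genes, and of 39 in SAS spheroids 6 and 0, against 5.76% and 0.596%. The counts of 0 came from edgeR, and DESeq2 gave 0 and 0. An unadjusted p under 0.05 was found for 15 and 17 members, and for 5081 of 15896 and 5392 of 14938 genes. By adjusted p alone, 7 members were higher and 6 lower in FaDu spheroids, against 9.52% and 9.78%, and 11 higher and 2 lower in SAS spheroids, against 13.6% and 11.5%. With 1 library left out the lower count in FaDu spheroids was 2 to 3, and scaled by total counts only that in SAS spheroids was 6. With the block, 5 members were lower by adjusted p in SAS spheroids, the added ones being DNAJC13 (-0.18, adjusted p = 0.015), DNAJC16 (-0.34, adjusted p = 0.0086) and DNAJC6 (-0.32, adjusted p = 0.013). Among the higher members it added DNAJC2 in SAS (0.16, adjusted p = 0.017) and DNAJB11 (0.20, adjusted p = 0.0081) and DNAJB9 (0.29, adjusted p = 0.033) in FaDu spheroids. The medians over the members were -0.01 and -0.03, and over all genes 0.01 and 0.00.

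Radiation alone altered none of the DNAJ genes. In RT against control, DNAJB1 measured 145, 123 and 136 CPM in FaDu control and 180.2, 136 and 141 CPM in FaDu RT libraries, and 226, 189 and 215 CPM and 238, 224 and 189 CPM in SAS libraries, with overlapping groups. Among the members with an unadjusted p under 0.05 were DNAJB9 and DNAJC27. DNAJB9 measured 11.5, 11.5 and 11.3 CPM in FaDu control and 10.3, 9.21 and 9.11 CPM in FaDu RT libraries, and 10.2, 10.1 and 10.6 CPM and 7.95, 6.11 and 7.30 CPM in SAS libraries, lower in every RT library. How many other members or genes were lower in every RT library was not counted. The log2 fold changes of DNAJB9 were -0.26 (adjusted p = 0.91) in FaDu and -0.54 (adjusted p = 0.38) in SAS spheroids, so neither passed the test without the block. DNAJC27 had a log2 fold change of -0.60 in FaDu spheroids (adjusted p = 0.59). Altered in edgeR were 0 of 38 members for FaDu and 0 of 39 for SAS, against 0.00643% and 0.0272% of all genes. DESeq2 gave 0 and 0, and 2 and 3 members had an unadjusted p under 0.05, as had 791 of 15552 and 834 of 14680 genes. After RT the lowest and the highest log2 fold change of a member were -0.60 and 0.18 (FaDu) and -0.61 and 0.25 (SAS). When replicates of 1 number were taken as a block, 2 members were lower by adjusted p in FaDu and 1 in SAS spheroids, and none was altered. They were DNAJA1 (-0.19, adjusted p = 0.042) and DNAJC27 (-0.60, adjusted p = 0.047) in FaDu and DNAJB9 (-0.54, adjusted p = 0.027) in SAS spheroids. Of all genes 25 were altered and higher and 3 altered and lower with the block in FaDu spheroids, and 23 and 2 in SAS spheroids.

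Radiation added to heat, HT + RT against HT, also altered none of them. DNAJB1 measured 3552, 4145 and 4645 CPM in FaDu HT and 3752, 4783 and 4804 CPM in FaDu HT + RT libraries, and 3732, 3843 and 4188 CPM and 4190.4, 3979.99 and 4221 CPM in SAS libraries. The groups overlapped. Within each replicate number DNAJB1 and DNAJA1 were higher in the HT + RT library in both types, an order that was not counted over the other members or all genes. Altered in edgeR were 0 of 39 members for FaDu and 0 of 38 for SAS, and of all genes 0% and 0%. DESeq2 gave 0 and 0, and 0 and 2 members had an unadjusted p under 0.05, as had 361 of 16145 and 673 of 15341 genes. The 2 in SAS spheroids were DNAJB5, with a log2 fold change of 0.34 (adjusted p = 1), and DNAJC14, with 0.22 (adjusted p = 0.98). The lowest and the highest log2 fold change of a member were -0.13 and 0.33 (FaDu) and -0.27 and 0.46 (SAS). With that block, 1 member, DNAJA1 (0.21, adjusted p = 0.044), was higher by adjusted p in FaDu and 0 in SAS spheroids. Of all genes 2 were then altered and higher and 1 altered and lower in FaDu spheroids, and 7 and 0 in SAS spheroids.

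Summed over their members, the DNAJB and DNAJA classes stood higher in heated than in control spheroids. The DNAJB sum was 582, 529.7 and 556 CPM in FaDu control and 4132, 4843 and 5445 CPM in FaDu HT libraries, and 741, 684 and 702 CPM and 4714, 4762 and 5152 CPM in SAS libraries. The DNAJA sum was 535, 444 and 482 CPM in FaDu control and 745, 800.4 and 972 CPM in FaDu HT libraries, and 817, 758 and 658 CPM and 2479.97, 2397 and 2639 CPM in SAS libraries. The DNAJC sum was 1296, 1253 and 1261 CPM in FaDu control and 1149.8, 1177 and 1144 CPM in FaDu HT libraries, and 1500.5, 1429 and 1466 CPM and 1498, 1457 and 1427 CPM in SAS libraries. The heated DNAJA and DNAJB sums were above all control sums in both types. The DNAJC sums after heat were below the control sums in FaDu spheroids and overlapped them in SAS spheroids. DNAJB1 made up 6, 5.52 and 5.9% of the member counts in FaDu control libraries and 58.9, 60.8 and 61.4% in FaDu HT libraries. In SAS spheroids it made up 7.38, 6.58 and 7.61% in control and 42.9, 44.6 and 45.4% in HT libraries, where DNAJA1 held a larger share than in FaDu spheroids. The mean of the whole family was 2312 ± 93.7 CPM (SD, n = 3) in FaDu control and 6803 ± 767 in FaDu HT spheroids, and 2918 ± 124 and 8842 ± 328 in SAS spheroids. Without DNAJB1 it was 2178 ± 83.1 and 2689 ± 221 CPM in FaDu and 2708 ± 114 and 4921 ± 133 CPM in SAS spheroids. These sums weigh the abundant genes and carry no test.

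**Figure D4:**
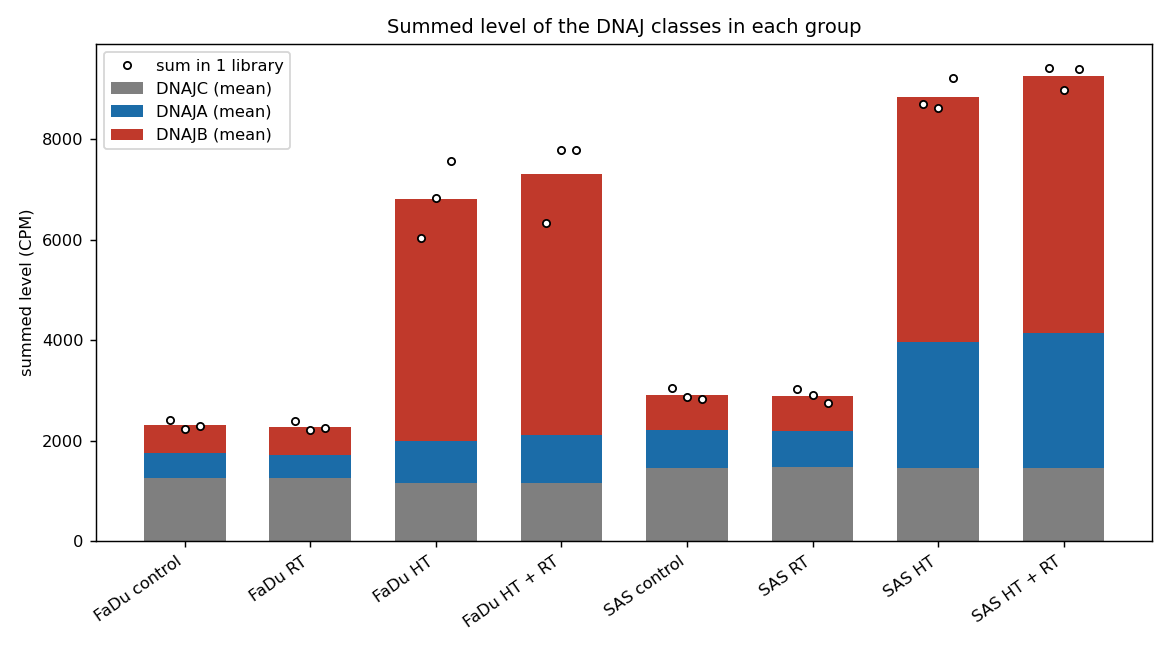
Mean summed CPM of the DNAJA (blue), DNAJB (red) and DNAJC (grey) genes in each of the 8 groups, stacked, with points for the whole family in each of 3 libraries. The family mean is 2283 and 2898 CPM in FaDu RT and SAS RT spheroids and 7299 and 9260.1 CPM in FaDu HT + RT and SAS HT + RT spheroids.

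After heat, DNAJB1 had the highest level per length in both types, at 1120.4 ± 149 (SD, n = 3) CPM per kb in FaDu HT and 1068 ± 64.7 CPM per kb in SAS HT spheroids, and DNAJA1 followed with 174 ± 24.9 and 639 ± 24.3 CPM per kb. DNAJB4 came next in FaDu HT spheroids at 47.5, 74.05 and 88.4 CPM per kb. In SAS HT spheroids DNAJA4 measured 81.6, 71.4 and 90.6 CPM per kb and DNAJB4 72.1, 72.1 and 89.8 CPM per kb, which did not differ beyond their spread. DNAJA4 stayed lower in FaDu HT spheroids, at 11.3, 15.04 and 28.7 CPM per kb, with library 3 above the others. With the longest transcript as the length, DNAJB1 and DNAJA1 held the same places in both types.

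The controls of the spheroid types were compared with each other. Of the genes that heat altered, DNAJA1, DNAJA4 and DNAJB1 were lower in FaDu than in SAS control spheroids and DNAJB4 was higher. With the values above, no FaDu control library overlapped a SAS control library in these genes. The log2 fold changes, FaDu against SAS, were -1.11 ± 0.11 (SE), adjusted p = 3.3e-06, for DNAJA1, -1.25 ± 0.17 (SE), adjusted p = 4.5e-05, for DNAJA4, -0.62 ± 0.08 (SE), adjusted p = 5.5e-05, for DNAJB1, under the fold threshold, and 1.39 ± 0.11 (SE), adjusted p = 6.6e-07, for DNAJB4. DNAJB2 and DNAJB5 differed in opposite directions, DNAJB2 lower in FaDu at -1.30 ± 0.10 (SE) and DNAJB5 higher at 1.05 ± 0.16. DNAJC22 measured 0.368, 0.357 and 0.288 CPM in FaDu and 12.3, 13.1 and 15.8 CPM in SAS control libraries, near 0 against clearly expressed. It counts as altered and lower below, and left the test when 10 counts were required in every library, so no fold change is given. DNAJC6, the auxilin that removes clathrin coats, measured 10.3, 11.02 and 10.2 CPM in FaDu and 36.6, 29.2 and 32.2 CPM in SAS control libraries, and DNAJC4 8.78, 9.54 and 8.47 CPM and 22.2, 19.3 and 21.5 CPM. Every SAS value was above every FaDu value, with log2 fold changes of -1.61 ± 0.11 (SE) for DNAJC6 and -1.21 ± 0.11 for DNAJC4.

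The genes higher in FaDu control spheroids were DNAJC12, DNAJC24 and DNAJC28, beside DNAJB4 and DNAJB5. DNAJC24, which takes part in diphthamide synthesis, measured 14.5, 13.8 and 14.2 CPM in FaDu and 7.64, 6.67 and 6.56 CPM in SAS control libraries. DNAJC12, a co-chaperone of aromatic amino acid hydroxylases, measured 2.21, 2.65 and 3.45 CPM and 1.18, 0.855 and 1.29 CPM, and DNAJC28 1.16, 1.63 and 1.56 CPM and 0.641, 0.627 and 0.879 CPM. The groups did not overlap in these genes. The log2 fold changes were 1.05 ± 0.12 (SE) for DNAJC24, 1.36 ± 0.28 for DNAJC12 and 1.05 ± 0.31 for DNAJC28. Without SAS control replicate 3 the log2 fold change of DNAJC24 was 1.0, and without FaDu control replicate 2, FaDu control replicate 3, SAS control replicate 1 or SAS control replicate 2 that of DNAJC28 was 0.97, 1.0, 0.97 and 0.95, at or under the threshold. In all, 5 of the 39 members were altered and higher in FaDu and 6 altered and lower, against 21.2% and 16.9% of 15810 genes, and by adjusted p alone 12 were higher and 18 lower, against 38.6% and 36.4%. By class, 2 of 4 DNAJA genes were altered, all lower, 2 higher and 1 lower of 9 DNAJB genes, and 3 higher and 3 lower of 26 DNAJC genes. Scaling by total counts only shifted the median of all genes by 0.17 in this comparison, moved the median over the members from -0.16 to 0.01, and brought DNAJA1 to -0.94. Under that scaling 17 members were higher and 17 lower by adjusted p alone.

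Whether heat acted to a different degree in FaDu and SAS spheroids was tested with the interaction of spheroid type and heat. DNAJB4 differed most: it started higher in FaDu control spheroids (33.02 ± 3.03 CPM, SD, n = 3) than in SAS control spheroids (12.8 ± 1.25) and reached like levels after heat (265 ± 78.5 and 295 ± 38.6). Its log2 fold change was smaller in FaDu than in SAS spheroids by 1.47 ± 0.26 (SE), adjusted p = 0.003, in HT against control and by 1.57 ± 0.25 (SE), adjusted p = 0.0012, in HT + RT against RT. The differences, FaDu minus SAS, were -1.47 and -1.57, and -1.21 and -1.34 without the FaDu libraries numbered 1. DNAJB2 also rose less in FaDu spheroids, with differences of -0.78 ± 0.16 (SE), adjusted p = 0.0071, in HT against control and -0.81 ± 0.11 (SE), adjusted p = 0.00035, in HT + RT against RT. DNAJB1 rose more in FaDu spheroids, with 0.76 ± 0.14 (SE), adjusted p = 0.005, and 0.63 ± 0.16 (SE), adjusted p = 0.029. The adjusted p of the last value was 0.071, 0.073, 0.052, 0.057, 0.06, 0.075, 0.054, 0.079 and 0.071 without FaDu HT + RT replicates 2 or 3 or FaDu RT replicates 2 or 3 or SAS HT + RT replicates 1, 2 or 3 or SAS RT replicates 1 or 2, in that order. DNAJA1 differed by -0.69 ± 0.16 (SE), adjusted p = 0.019, in HT against control, and by -0.50 (adjusted p = 0.1) in HT + RT against RT, where it passed only with the replicate block (-0.50, adjusted p = 0.046). Without the FaDu libraries numbered 1 the first was -0.50, adjusted p = 0.031. DNAJA4 had differences of -0.81 (adjusted p = 0.3) and -0.52 (adjusted p = 0.41), so its larger rise in SAS spheroids did not pass the test, though with the block the first did (-0.87, adjusted p = 0.025). Without FaDu HT replicate 3 its difference in HT against control was altered (-1.34, adjusted p = 0.0039). DNAJC7 differed by -0.44 ± 0.11 (SE), adjusted p = 0.024, and -0.38 ± 0.08 (SE), adjusted p = 0.0099. The first adjusted p was 0.05, 0.055 and 0.052 without FaDu HT replicate 2 or FaDu control replicate 1 or SAS control replicate 2, in that order. DNAJC14 differed by -0.60 ± 0.12 (SE), adjusted p = 0.0063, in HT + RT against RT and by -0.25 (adjusted p = 0.26) in HT against control.

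In HT against control, 1 of the 39 members had an altered difference and 5 passed the adjusted p, against 2.74% and 5.55% of 17219 genes. In HT + RT against RT, 1 of 39 had an altered difference and 5 passed the adjusted p, against 3.36% and 7.59% of 17376 genes. With the replicate block 1 member had a higher and 6 a lower difference by adjusted p in HT + RT against RT, the added ones being DNAJA1 and DNAJC5 (-0.22, adjusted p = 0.035). Of all genes 296 had an altered higher and 433 an altered lower difference with the block, beside 232 and 351 without it. The medians of the difference over the members were -0.01 and -0.02. Without the block none of the members listed at the ER, in mitochondria or in vesicle traffic, lists without DNAJC14, passed the adjusted p in edgeR. With it DNAJB9 (0.60, adjusted p = 0.032) and DNAJC5 (-0.24, adjusted p = 0.039) did in HT against control. In the fit without the block, 1, 2 and 1 of the listed members had an unadjusted p under 0.05 in HT against control, as had 2966 of 17219 genes.

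**Figure D5:**
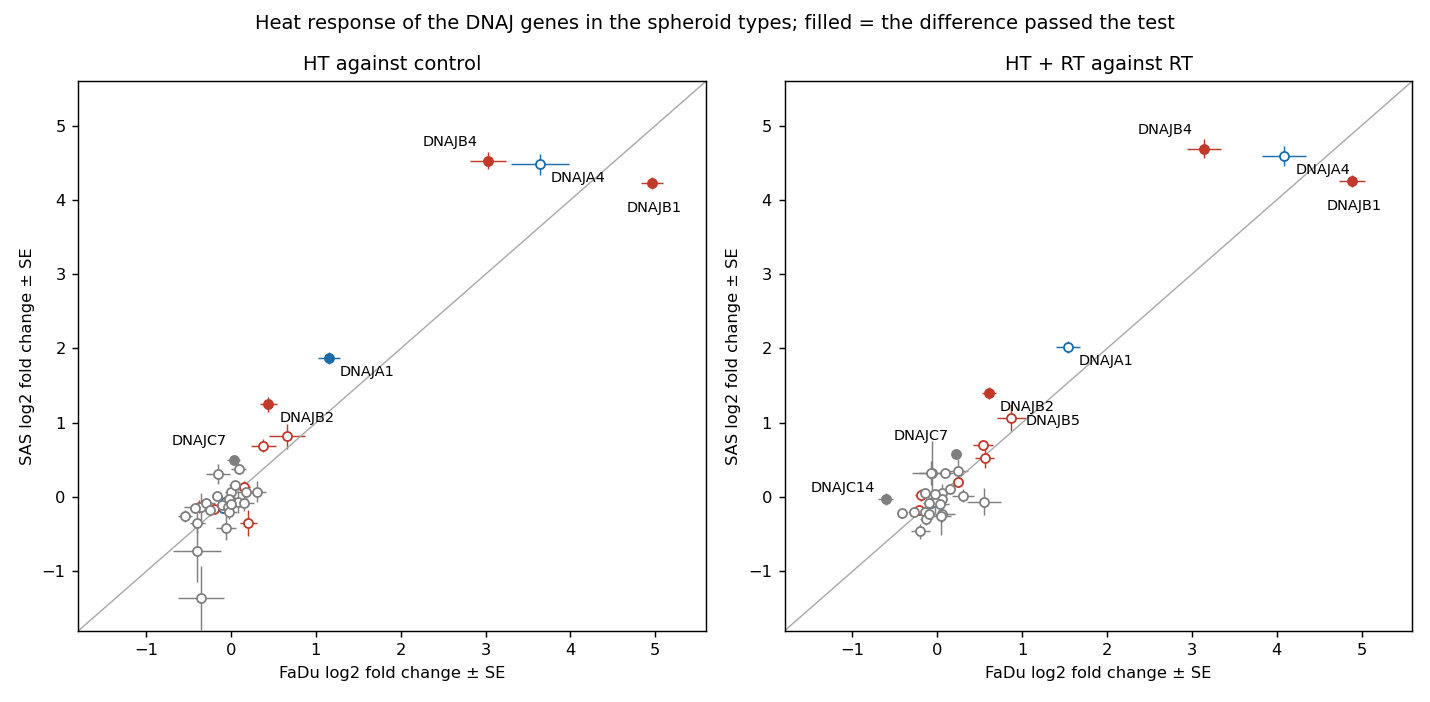
Log2 fold change ± SE of each DNAJ gene after heat in SAS (vertical axis) against FaDu spheroids (horizontal axis), for HT against control and for HT + RT against RT, with the line of equal response and filled points where the difference passed the adjusted p. DNAJB4 lies above the line at 3.03 in FaDu and 4.53 in SAS spheroids, and DNAJB1 below it at 4.96 and 4.23.

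The HSP70 genes, whose proteins the J domain acts on, were described from a list of 12. HSPA6, a strictly heat-inducible HSP70, measured 0.526, 0.510 and 0.288 CPM in FaDu control and 3914, 4226 and 4984 CPM in FaDu HT libraries, and 0.855, 0.342 and 1.05 CPM and 1588, 1956 and 2392 CPM in SAS libraries. HSPA1A measured 115, 79.1 and 107 CPM in FaDu control and 2471, 2807 and 3025 CPM in FaDu HT libraries, and HSPA1B 244, 175 and 228 CPM and 6064, 6851 and 7479 CPM. HSPA1A and HSPA1B are near-identical copies, so how the counts were shared between them is uncertain. In HT against control the log2 fold changes in FaDu and SAS spheroids were 4.80 and 4.56 for HSPA1A, 5.0 and 4.68 for HSPA1B, and 4.21 and 3.89 for HSPA1L. HSPA8, the constitutive HSC70, rose by 0.84 and 0.84. HSPA5 of the ER and HSPA9 of mitochondria had -0.16 and -0.36, and 0.01 and 0.02, of which the HSPA5 value in SAS spheroids passed the adjusted p. In all, 4 of 12 tested HSP70 genes were altered in FaDu spheroids and 4 of 11 in SAS spheroids, all higher, and in HT + RT against RT 5 of 12 and 4 of 11. Of all genes 4.29% and 5.31% were altered and higher in HT against control, and 4.76% and 5.71% in HT + RT against RT.

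Of the 13 nucleotide exchange factors, 2 in FaDu and 4 in SAS spheroids were altered in HT against control, all higher, where 4.29% and 5.31% of all genes were. HSPH1, the HSP110 that frees HSP70 of its nucleotide, measured 247, 174 and 220.02 CPM in FaDu control and 514, 506 and 846 CPM in FaDu HT libraries, and 522, 550.2 and 424 CPM and 3526, 3357 and 3834 CPM in SAS libraries. BAG3, which links HSP70 to autophagy, measured 146, 129 and 131 CPM in FaDu control and 277, 369 and 538 CPM in FaDu HT libraries, and 201, 182 and 166 CPM and 1326, 1469.7 and 1563 CPM in SAS libraries. HSPA4, another HSP110, measured 438, 395 and 409 CPM in FaDu control and 397, 395 and 362 CPM in FaDu HT libraries, and 411, 399 and 384 CPM and 858, 879 and 909.6 CPM in SAS libraries. HSPH1 and BAG3 were higher in every heated library of both types, and HSPA4 was so in SAS spheroids and overlapped in FaDu spheroids. The log2 fold changes in FaDu and SAS spheroids were 1.57 and 2.85 for HSPH1, 1.57 and 2.99 for BAG3, -0.09 and 1.15 for HSPA4, and 0.46 in FaDu spheroids for HSPA4L, which rose 4.55-fold in SAS spheroids. The difference, FaDu minus SAS, was altered for all of these in HT against control, at -1.25, -1.39, -1.21 and -1.70, and in HT + RT against RT for HSPA4 (-1.17) and HSPA4L (-1.82). The median over the list was 0.07 in FaDu and 0.07 in SAS spheroids.

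Of the heat shock factors and their inhibitor, HSF1, HSF2, HSF4 and HSBP1, none was altered after heat in edgeR. In HT against control 2 in FaDu and 4 in SAS spheroids had an unadjusted p under 0.05, as had 4885 of 15879 and 5323 of 15000 genes. HSBP1, the inhibitor, passed the adjusted p in SAS spheroids, in HT against control (0.36 ± 0.07 (SE), adjusted p = 0.0024) and in HT + RT against RT (0.43 ± 0.06 (SE), adjusted p = 0.00017). HSF2 passed it in SAS HT + RT against RT (-0.42 ± 0.11 (SE), adjusted p = 0.015), where its adjusted p was 0.058 and 0.057 without SAS HT + RT replicate 2 or SAS RT replicate 2, in that order. HSF1, the main heat shock factor, measured 58.5, 55.6 and 51.5 CPM in FaDu control and 186, 178 and 188 CPM in SAS control libraries, lower in every FaDu library (log2 fold change -1.71 ± 0.07 (SE), adjusted p = 4.3e-09). After HT it measured 70.1, 56.7 and 55.2 CPM in FaDu and 199, 202 and 197 CPM in SAS libraries. Of J domain genes outside the symbol rule, SEC63 of ER import and GAK, an auxilin, had log2 fold changes of 0.02 and 0.14 in FaDu and 0.01 and 0.02 in SAS spheroids. For the HSP70 genes, the exchange factors and the heat shock factors, DESeq2 gave the same number of altered genes in HT against control.

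Some members share exon sequence with a neighbor, and the strand setting of the counting is not known, so part of their counts may belong to the neighbor. The opposite strand overlap covered 27.9% of the exons of DNAJC11 (THAP3), 24.2% of DNAJB7 (XPNPEP3, with 23658 counts against 89 of DNAJB7), 24% of DNAJC9 (FAM149B1), 21.9% of DNAJC14 (ORMDL2), 20.4% of DNAJC17 (GCHFR) and 14.4% of DNAJC30 (BUD23). It covered 6.5% of DNAJB9 (THAP5, 12155 counts) and 3.5% (PNPLA8, 18647 counts), against 4852 counts of DNAJB9. On the same strand DNAJC4 shared 10.6% with NUDT22, which had 8459 counts against 6479 of DNAJC4. For the heat-altered members it was 5.7% of DNAJB1 (TECR) and 5.6% of DNAJA4, whose neighbor had 0 counts, and DNAJB4 shared 2.1% with GIPC2, which had 33 counts over all libraries against 72486 of DNAJB4. Processed pseudogenes of the members held at most 0.378% of the counts of their parent gene, in DNAJC19.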

How the data were processed

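RNA of 24 spheroid libraries, 3 in each of 8 groups, was sequenced. The authors made directional libraries and deposited raw read counts per gene for 57500 Ensembl genes. Of 42 count columns read, 18 repeated others and were identical to them. The submitters' processing notes name bcl2fastq, DESeq2 and the build mm9, while the gene identifiers are human. Which aligner, read counter, annotation and strand setting were used is not given in the sources used here. Symbols, gene types and exon lengths came from GENCODE v29, where 602 genes, with 0.0217% of the counts, were not found.

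The 13 comparisons were each fitted on the compared groups alone, over all genes, with edgeR 4.0.16 (with limma 3.58.1) in R 4.3.3: TMM factors, filterByExpr with a minimum count of 10, the quasi-likelihood F test, and Benjamini-Hochberg adjustment over all genes tested. Genes past 0.05 by adjusted p and past 1 by log2 fold change, in either direction, are called altered. The SE is the absolute log2 fold change over the root of F. Summaries and figures used Python 3.11.15, numpy 2.4.6, pandas 2.3.3 and matplotlib 3.10.9.

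Each comparison was also run with DESeq2 1.42.0 (Wald test), with RLE factors, scaled by total counts only, with no filter, with at least 10 counts in every library, with the replicate number as a block, with all groups in 1 fit, by adjusted p alone, and with each library left out. Levels per length were repeated with the longest transcript. Leaving out the FaDu libraries numbered 1 together, and the alternatives for the partner lists, were chosen after seeing the data.

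Values per library are given for members altered by heat in both types, altered between the controls or in an interaction, up to 3 with the lowest negative log2 fold change after HT among those past the adjusted p in each type, and the highest per length of each class. For other genes the choice was made with their values in view. Members and lists were chosen with earlier results of these data known. The paper names 3 independent experiments in both spheroid models, and the labels give replicate numbers only. Pairing was therefore judged over all genes from correlations of deviations from group means. Every same-number correlation was over 0.1, which was taken as paired, in each comparison except SAS HT against control and the controls. The main fits held no term for the replicate number, so their p-values and SE leave this pairing out. A member that did not pass there may pass with the block, which is given as an alternative. The fit was tested on simulated data, and no result given here rests on that test.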

Additional observations from a re-analysis of the deposited data

Results flagged for a closer look

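The heat response of 6 members differed between FaDu and SAS spheroids by the test of the difference itself, the interaction of spheroid type and heat in edgeR. The values are differences of log2 fold changes, FaDu minus SAS.

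In HT against control, DNAJB4 had a difference of -1.47, DNAJB2 of -0.78 and DNAJA1 of -0.69, and these rose in both types, less in FaDu. DNAJC7 had -0.44 and rose in SAS spheroids only. DNAJB1 had 0.76 and rose more in FaDu spheroids. In HT + RT against RT, the differences were -1.57 for DNAJB4, -0.81 for DNAJB2, -0.38 for DNAJC7 and 0.63 for DNAJB1, all of which rose in both types. DNAJC14 had -0.60 and fell in FaDu spheroids only. The DNAJB4 values alone passed the fold threshold as well.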

How the results depend on the processing

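By adjusted p alone, which drops the fold threshold by construction, the altered members numbered 9 in FaDu and 11 in SAS HT against control, 13 and 13 in HT + RT against control, 14 and 17 in HT + RT against RT, and 30 between the controls. The differences between the types numbered 5 in HT against control and 5 in HT + RT against RT.

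The difference in HT + RT against RT was altered for 1 member. It was altered for 2 with no filter and 2 without the FaDu libraries numbered 1 together, each time adding DNAJC22, which SAS libraries carried past the filter and which had 2 to 24 counts in the FaDu libraries. With 1 library left out the count was 1 to 2, and FaDu HT + RT replicate 1 was the library whose omission added DNAJC22. In HT against control it was also 1 to 2, with DNAJA4 added without FaDu HT replicate 3. The cause was not tested.

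In SAS HT against control and between the controls, same-number correlations were 0.03 to 0.18 and -0.02 to 0.1, not all over 0.1, so these were not taken as paired. In each, 4 of 6 libraries correlated best with their own number, as in FaDu RT against control, which was taken as paired. SAS HT and SAS control each correlated by number with SAS HT + RT (0.17 to 0.3 and 0.15 to 0.25). Whether the number marks a shared run in SAS HT against control is thus not settled. With the replicate number as a block, SAS HT against control had 5 altered members in place of 6, without DNAJC28, and the block changed no other altered call. By adjusted p alone it moved 11 members to 16 there, 30 to 31 between the controls, and the differences in HT against control from 5 to 8. Over all genes the altered higher and lower ones went from 797 and 107 to 804 and 111 in SAS HT against control. They went from 3356 and 2664 to 3336 and 2655 between the controls. For the differences in HT against control they went from 215 and 256 to 313 and 365. DNAJC28 was also below the call with DESeq2, with no filter and without any 1 library, and could not be tested with at least 10 counts in every library. Its low counts limit what can be said of it.

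Scaled by total counts only, DNAJA1 was no longer altered between the controls, and DNAJB5 no longer in SAS HT + RT against RT, while DNAJC28 became altered in SAS HT + RT against control. DNAJC22 between the controls could not be tested with at least 10 counts in every library, and DNAJB7, whose exons overlap the abundant XPNPEP3, was gained in FaDu HT + RT against control with no filter.

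Of 893 calls of members past the adjusted p under the alternatives, 859 were kept and 34 lost. With a library left out, 638 of 762 were kept and 124 lost, whatever the size of the fold change, and no direction reversed.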
